A study of Rattus norvegicus with 69 samples.

Results

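Seminiferous tubules of adult rats were compared between stages II-III and stage I of the cycle of the seminiferous epithelium, the step in which the youngest haploid germ cells, formed by the meiotic divisions just before stage I, pass through the first steps of their development. The samples were chosen by their titles: 5 of stages II-III and 5 of stage I, of 69 in the whole series. Each was 1 array hybridised with RNA of tubules dissected by transillumination and pooled from 2 Sprague Dawley rats, each of which gave 25 pieces of tubule at the age of 55 to 60 days. No mutation or treatment of the rats is stated, and each sample held every cell type of the tubule wall at that stage. The other samples used here were 39 tubule samples of the other 8 stage groups, which entered the fit, and 15 samples of isolated cells. Round spermatids, pachytene spermatocytes and Sertoli cells had 4 samples each, and a mixture of spermatogonia and early spermatocytes, from younger rats of 18 to 20 days, had 3. Levels are array signals on a linear scale, with every array at the same trimmed mean, and are given as mean ± SD over 5 samples or for each sample in the order of the replicate numbers.

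A tubule stage is a fixed set of germ cells that lie together in layers on the Sertoli cells, the somatic nurse cells of the epithelium. In the rat the meiotic divisions take place in stage XIV, so stage I tubules hold new round spermatids next to elongated spermatids of the generation before, and pachytene spermatocytes of the generation behind. Round spermatids build the acrosome, the enzyme-filled cap over the sperm head, from Golgi vesicles, and start the flagellum. In elongating spermatids histones are replaced by transition proteins and then by protamines, and their messages are made early and stored. Division genes such as Cdk1 are transcribed in late spermatocytes ahead of the divisions.

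All 10 arrays stood at the same trimmed mean, so their overall level was set by scaling, and the test of the median signal says little about it. The median signal per array was 45.8 ± 2.2 in stage II-III tubules and 43.9 ± 2.7 in stage I tubules (exact permutation test, two-sided, p = 0.230, where 0.00794 is the smallest p that 5 against 5 can give). The GAPDH 3′ to 5′ ratio, a sign of RNA quality, was 1.17 ± 0.12 in stage II-III tubules and 1.22 ± 0.14 in stage I tubules (exact p = 0.587). Of 13 such measures tested, none passed after adjustment (lowest adjusted p = 0.206). With 5 against 5, no measure on its own could pass after adjustment over 13, so this does not show that the arrays were alike. The lowest unadjusted p-values were those of summed marker signals. Round spermatid markers summed to 6561 ± 720 in stage II-III and 5212 ± 383 in stage I (exact p = 0.0159). In the same order, elongating spermatid markers summed to 28265 ± 6707 and 40809 ± 9890 (exact p = 0.0397). Sertoli cell markers summed to 4413 ± 194 and 4157 ± 102 (exact p = 0.0476). These sums hold genes that are described below as changed, Acrv1 and Crem for round spermatids and Tnp1, Tnp2 and Prm2 for elongating spermatids. As a check of the tubule label, the mean signals at stage II-III ran from 46.3 (Rhox5) to 2721 (Clu) for Sertoli cell markers, from 101 (Sycp1) to 4604 (Hspa2) for pachytene markers and from 889 (Tnp2) to 11010.0 (Prm1) for spermatid markers. They ran from 7.71 (Hsd3b1) to 100.05 (Cyp11a1) for Leydig cell, from 14.2 (Ptprc) to 87.0 (Csf1r) for macrophage and blood and from 10.1 (Pecam1) to 48.5 (Tie1) for endothelial markers, so the brightest of these overlapped the dimmest tubule markers. Spermatogonial markers ran from 13.9 (Sohlh1) to 209 (Uchl1) and peritubular myoid cell markers from 5.75 (Tagln) to 266 (Myh11). Both reached as low as the markers of cells outside the tubule, so this check is weak. Stage I replicate 2 (mean correlation 0.898 with the other 4 of its group) and stage II-III replicate 4 (0.907) stood slightly apart from the others, which lay between 0.913 and 0.928.

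Among 22258 probe sets tested, 518 were at least 2-fold higher at stage II-III than at stage I (2.33%) and 292 at least 2-fold lower (1.31%), at an adjusted p under 0.05. Without both samples that stood apart, 420 were higher and 254 lower, of which 382 and 209 were called with all samples. Of the 810 changed probe sets, 47 were at least 4-fold higher and 13 at least 4-fold lower. With 1 probe set for each of 12003 genes, 337 genes were at least 2-fold higher (2.81%) and 190 at least 2-fold lower (1.58%), and at any fold 1162 rose (9.68%) and 1183 fell (9.86%). Without regard to a test, all 5 stage II-III samples lay above all 5 stage I samples for 6.91% of genes and below them for 6.98%. Below, "rose" and "fell" mean an adjusted p under 0.05 for stage II-III against stage I. In whole tubules, fewer cells of a type and less RNA per cell cannot be told apart.

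**Figure D1:**
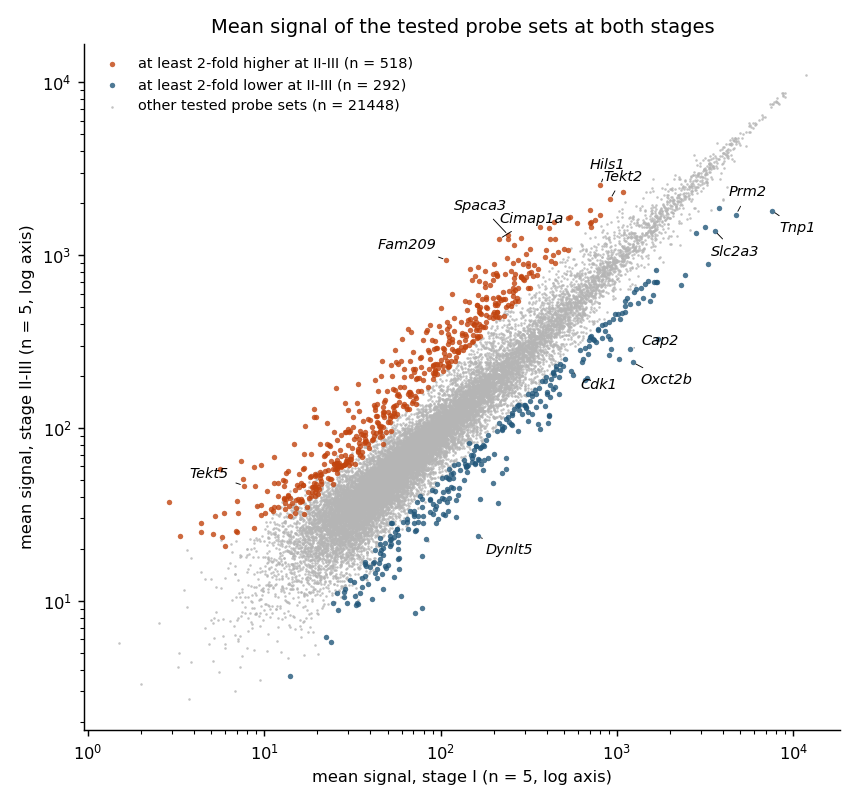
Mean signal at stage II-III (vertical, log axis) against mean signal at stage I (horizontal, log axis) for the 22258 tested probe sets, 5 samples per stage. The 518 probe sets at least 2-fold higher at stage II-III lie above the diagonal (red), the 292 at least 2-fold lower lie below it (blue), and Tnp1, with a mean of 1810 at stage II-III and 7570 at stage I, has the highest stage I mean of the lower ones.

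Acrosome genes held the highest share of large rises among the gene lists. Of 18 acrosome genes tested, 5 rose at least 2-fold and none fell as much (27.8% of the list, beside 2.81% of all genes). At any fold 9 rose and 4 fell, beside 9.68% and 9.86% of all genes. The median log2 change was 0.32, against -0.0032 over all genes. Fam209, which in the mouse is needed for acrosome formation, gave 684, 719.9, 689, 1159 and 1439 in the stage II-III samples and 68.6, 74.0, 32.0, 162 and 202 in the stage I samples. It had the largest fold of all genes named here, a log2 change of 3.25 ± 0.32 (SE), adjusted p = 3.2e-11. The lowest stage II-III sample was more than 3 times the highest stage I sample.

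Spaca3, a lysozyme-like protein of the acrosome, gave 1058, 944, 871, 1939 and 1718 at stage II-III and 203, 182, 144, 355 and 327 at stage I (a log2 change of 2.41 ± 0.18 (SE), adjusted p = 1.3e-14). Spam1, the sperm hyaluronidase PH-20, gave 1252, 1035, 929, 1438 and 1554 at stage II-III and 243, 143, 152, 324 and 337 at stage I (a log2 change of 2.41 ± 0.30 (SE), adjusted p = 1.3e-08). Neither gene had overlapping groups, and for both the lowest values at stage I came from replicates 2 and 3. Acrv1, the acrosomal matrix protein SP-10, averaged 1148 ± 291 in stage II-III tubules and 261 ± 76.1 in stage I tubules (a log2 change of 2.13 ± 0.19 (SE), adjusted p = 2.2e-12), and Lyzl6, another lysozyme-like protein, averaged 692 ± 174 in stage II-III tubules and 179 ± 55.1 in stage I tubules (a log2 change of 1.94 ± 0.15 (SE), adjusted p = 1.3e-14). Smaller rises were seen for Actl7b, an actin-like protein of the spermatid head (log2 change 0.95, adjusted p = 1.6e-09), Pcsk4, a proprotein convertase (log2 change 0.58, adjusted p = 0.00416), and Acrbp, which binds proacrosin (log2 change 0.35, adjusted p = 9.5e-05). The gene for acrosin itself, Acr, did not pass, with 1003 ± 111 in stage II-III tubules and 749 ± 108 in stage I tubules (log2 change 0.42, adjusted p = 0.201). Gopc, a Golgi protein needed for acrosome formation in the mouse, fell to 78.6 ± 17.0 in stage II-III tubules, against 141 ± 17.4 in stage I tubules (log2 change -0.82, adjusted p = 1.1e-05), and Zpbp2, Spaca9 and Adam2 fell by 0.64, 0.47 and 0.23 on the log2 scale. Among 33 Golgi and secretory traffic genes none changed 2-fold. Of these 33, 6 rose and 4 fell, beside 9.68% and 9.86% of all genes. The rises were led by Arf4 (0.63), Bet1 (0.54) and Sec22b (0.52), and the falls by Rab6a (-0.72) and Tmed10 (-0.64), all in log2 change.

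**Figure D2:**
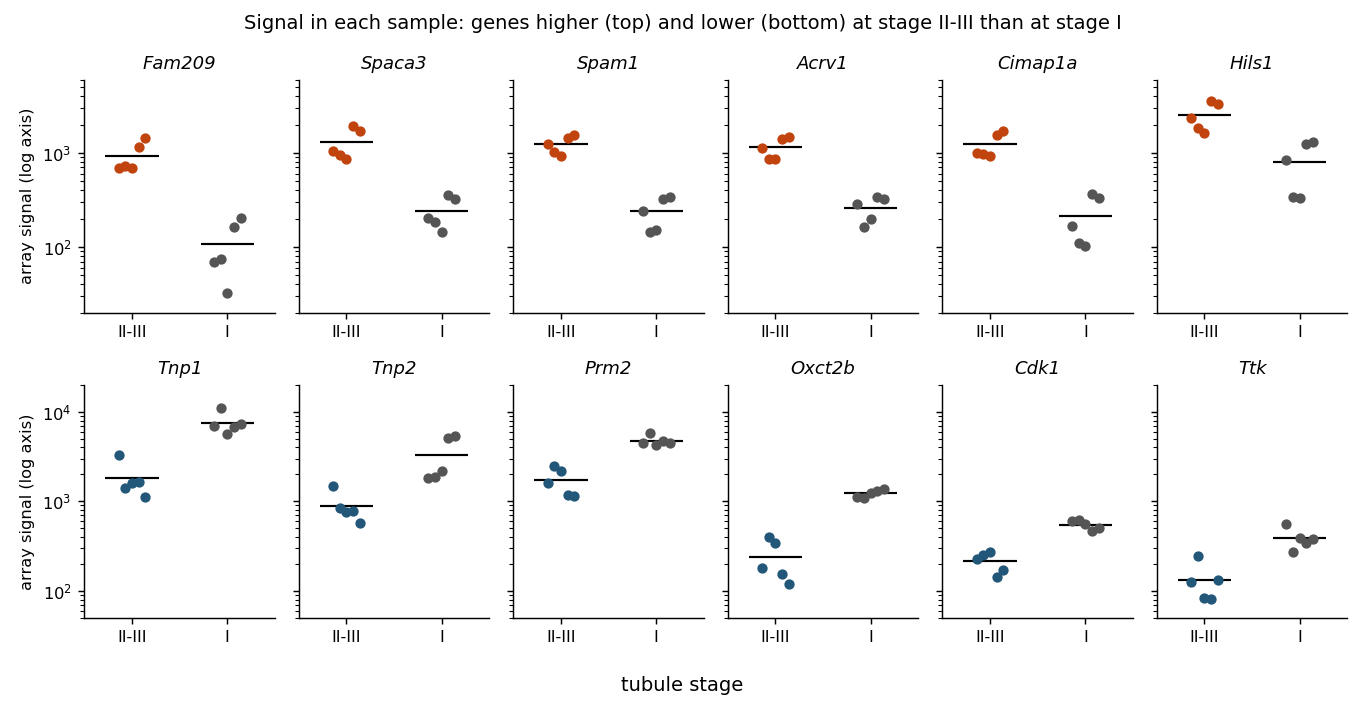
Array signal (log axis) in each of the 5 stage II-III samples (left of each panel) and 5 stage I samples (right), with the mean as a line. Fam209, Spaca3, Spam1, Acrv1, Cimap1a and Hils1 (top) were higher at stage II-III, Tnp1, Tnp2, Prm2, Oxct2b, Cdk1 and Ttk (bottom) were lower, and no panel shows overlapping groups.

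Flagellum genes were split between a few large rises and many genes that did not pass. Of 33 tested, 5 rose at least 2-fold and none fell as much (15.2%, beside 2.81% of all genes). At any fold 10 rose and 2 fell (Ift20 and Dnah1), beside 9.68% and 9.86% of all genes. The other 21 did not pass, and the median log2 change was 0.014. Cimap1a, an outer dense fibre protein formerly called Odf3, gave 988, 981, 935, 1565 and 1724 at stage II-III and 165, 111, 103, 362 and 333 at stage I (a log2 change of 2.64 ± 0.22 (SE), adjusted p = 1.5e-13). The groups did not overlap, and replicates 4 and 5 were the highest of both groups. The other 4 were Tekt2 and Tekt5, tektins that line the microtubules of the axoneme, Ift81, a carrier of tubulin in intraflagellar transport, and Cabyr, a calcium-binding protein of the fibrous sheath. Tekt2 averaged 2110.2 ± 446 in stage II-III tubules and 916 ± 104 in stage I tubules (a log2 change of 1.18 ± 0.11 (SE), adjusted p = 4e-12). Ift81 averaged 628 ± 72.8 in stage II-III tubules and 265 ± 35.4 in stage I tubules (a log2 change of 1.23 ± 0.12 (SE), adjusted p = 1.4e-11), and both of its other probe sets were also at least 2-fold higher. Tekt5 had low signals throughout, 22.8, 32.6, 30.7, 77.8 and 68.7 at stage II-III and 4.76, 2.35, 1.53, 11.6 and 18.1 at stage I (a log2 change of 2.05 ± 0.28 (SE), adjusted p = 8.6e-08). Cabyr was low as well, at 69.0 ± 30.6 in stage II-III tubules and 21.7 ± 17.4 in stage I tubules, and its groups overlapped (log2 change 1.62, adjusted p = 0.00512). Among the members that did not pass, Odf1, of the outer dense fibres, averaged 8673 ± 2615 in stage II-III tubules and 8779 ± 2894 in stage I tubules, and Akap4, of the fibrous sheath, averaged 4162 ± 545 in stage II-III tubules and 4633 ± 403 in stage I tubules. Akap3, the fibrous sheath protein related to Akap4, rose (log2 change 0.81, adjusted p = 1.9e-05), though its groups overlapped.

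The genes of spermatid chromatin moved in both directions, and with 25% of the list they had the highest share of large falls (1.58% of all genes). Of 16 tested, 4 fell and 2 rose at least 2-fold (beside 1.58% and 2.81% of all genes). At any fold 7 fell and 2 rose (beside 9.86% and 9.68% of all genes). Tnp1, the major transition protein, gave 3299, 1408, 1588, 1648 and 1107 at stage II-III and 7023, 10908, 5667, 6862 and 7388 at stage I (a log2 change of -2.13 ± 0.23 (SE), adjusted p = 5.4e-10). Stage II-III replicate 1 was the highest of its group and still below every stage I sample. Tnp2, the second transition protein, gave 1480.5, 835, 767, 787 and 577 at stage II-III and 1822, 1879, 2185, 5089 and 5415 at stage I (a log2 change of -1.77 ± 0.26 (SE), adjusted p = 5.2e-07). The stage I samples fell into a lower trio, replicates 1 to 3, and a higher pair, replicates 4 and 5. Prm2, one of the protamines that pack sperm DNA, averaged 1720.3 ± 599 in stage II-III tubules and 4739 ± 594 in stage I tubules (a log2 change of -1.52 ± 0.19 (SE), adjusted p = 9.2e-09), and Prm3, a protamine-related gene, fell by 0.94 on the log2 scale. Prm1, the other protamine, did not pass, with 11010.0 ± 3556 in stage II-III tubules and 11810.0 ± 4602 in stage I tubules (log2 change -0.08 ± 0.24 SE). H2ap, an X-linked histone H2A variant of spermatids, averaged 252 ± 100.3 in stage II-III tubules and 1026 ± 206 in stage I tubules (a log2 change of -2.09 ± 0.19 (SE), adjusted p = 4.8e-12), and Kat5, an acetyltransferase of histone H4, fell by 0.91 on the log2 scale.

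Hils1, a linker histone of spermatids, rose. It gave 2342, 1862, 1617, 3579.6 and 3292 at stage II-III and 834, 336, 329.8, 1229 and 1301 at stage I (a log2 change of 1.82 ± 0.32 (SE), adjusted p = 1.7e-05). Its stage I samples ranged almost 4-fold, with replicates 2 and 3 lowest, but none reached the lowest stage II-III sample. Tnp1, Tnp2, Prm2 and Hils1 were all highest at stage IX-XI among the 10 stages. Hils1 was lowest at XIII-XIV (mean 725), where Tnp1 had a mean of 9285 and Prm2 one of 5781. Cdyl2, a chromodomain protein, was the other member that rose at least 2-fold, with 120.4 ± 34.9 in stage II-III tubules and 56.4 ± 20.0 in stage I tubules and overlapping groups (log2 change 1.05, adjusted p = 6.9e-05). The elongating spermatid markers as a whole summed to between 21935 and 36023 in stage II-III samples and between 29963 and 56665 in stage I samples. This sum holds Tnp1, Tnp2 and Prm2 themselves, and its other members, Prm1, Akap4 and Odf1, did not pass, with log2 changes of -0.08, -0.16 and -0.01.

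The next 5 genes that fell had their highest stage mean at VIII or IX-XI. Dynlt5, a dynein light chain of the Tctex family, had the largest fall, with 62.6, 30.5, 9.45, 6.25 and 9.38 at stage II-III and 163, 68.4, 126, 248 and 209 at stage I (a log2 change of -2.78 ± 0.30 (SE), adjusted p = 2.4e-10). Stage II-III replicates 3 to 5 were near the bottom of the signal range. The groups were close, and their lack of overlap was required by the choice of the largest falls. Zc2hc1b, a zinc finger gene, averaged 9.16 ± 4.19 in stage II-III tubules and 78.6 ± 25.6 in stage I tubules (a log2 change of -2.53 ± 0.30 (SE), adjusted p = 5.2e-09). Oxct2b, a testis form of the ketone body enzyme succinyl-CoA transferase, gave 182, 397, 346, 156 and 120.3 at stage II-III and 1126, 1077, 1238, 1321 and 1380.5 at stage I (a log2 change of -2.47 ± 0.29 (SE), adjusted p = 3.4e-09). Every stage I sample was more than 2 times the highest stage II-III sample. Oxct2b has a close relative, Oxct2a, and whether the probe set also reads it was not tested. An uncharacterised gene, LOC102548489, averaged 327 ± 156 in stage II-III tubules and 1703 ± 393 in stage I tubules (log2 change -2.50, adjusted p = 1.7e-11), and Cimap1b, related to the rising Cimap1a, averaged 36.7 ± 15.0 in stage II-III tubules and 213 ± 41.8 in stage I tubules (log2 change -2.46, adjusted p = 7.3e-09).

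Cap2, which binds actin and regulates its turnover, gave 290.2, 353, 343, 269 and 181 at stage II-III and 1053, 1295, 1139, 1251 and 1226 at stage I (a log2 change of -2.07 ± 0.11 (SE), adjusted p = 6.8e-19). A dim second probe set for Cap2, near a signal of 40.1 at stage II-III and 39.6 at stage I, showed no such difference. Gabarapl1, an autophagy protein of the ATG8 family, averaged 106 ± 53.9 in stage II-III tubules and 408 ± 129.9 in stage I tubules (log2 change -1.97, adjusted p = 2.4e-11), and its dimmer second probe set did not pass (log2 change 0.17). Of the brightest probe sets that fell, Garin5a, a Golgi-associated RAB2 interactor, averaged 1886 ± 293 in stage II-III tubules and 3771 ± 245 in stage I tubules (log2 change -1.01, adjusted p = 1.3e-09) and Fam221b averaged 1462 ± 168 in stage II-III tubules and 3164 ± 327 in stage I tubules (log2 change -1.11, adjusted p = 8.6e-09). Slc2a3, the glucose transporter GLUT3, averaged 1384 ± 505 in stage II-III tubules and 3583 ± 448 in stage I tubules (a log2 change of -1.44 ± 0.13 (SE), adjusted p = 4e-12), and a second probe set fell by 1.38 on the log2 scale. Among 16 germ cell isozymes and transporters of energy metabolism, Oxct2b and Slc2a3 fell and Slc16a7, the monocarboxylate carrier MCT2, rose at least 2-fold, with 619, 574, 524, 767 and 1123 at stage II-III and 192, 120.0, 146, 254 and 273 at stage I (a log2 change of 1.86 ± 0.16 (SE), adjusted p = 3.2e-13). Ldhc (-0.07) and Gapdhs (0.01), the sperm isozymes of lactate dehydrogenase and GAPDH, did not pass (log2 changes). The falls of at least 2-fold made up 12.5% of this list and the rise 6.25%, beside 1.58% and 2.81% of all genes.

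Of the genes of the G2 phase and the divisions, more fell than rose. Of 28 tested, 14 fell, 1 rose and 13 did not pass (beside 9.86% of all genes that fell and 9.68% that rose). Of the 28, 4 fell at least 2-fold (14.3%, beside 1.58% of all genes), and the median log2 change was -0.41. Cdk1, the kinase that drives entry into division, gave 228, 252, 272, 144 and 170.0 at stage II-III and 600.3, 619.8, 561, 463 and 501 at stage I (a log2 change of -1.38 ± 0.13 (SE), adjusted p = 4.8e-12). Ttk, the kinase that starts the spindle checkpoint, gave 124, 247, 82.4, 81.8 and 133 at stage II-III and 565, 271, 385, 344 and 378 at stage I (a log2 change of -1.58 ± 0.20 (SE), adjusted p = 1.6e-08). Replicate 2 was the highest of the stage II-III samples and the lowest of the stage I samples for Ttk, and the groups still did not overlap. Cdc20, which activates the anaphase-promoting complex, averaged 174 ± 44.1 in stage II-III tubules and 447 ± 36.3 in stage I tubules (a log2 change of -1.37 ± 0.22 (SE), adjusted p = 2.7e-06). Of its 4 other probe sets, 1 with means of 202 at stage II-III and 289.6 at stage I fell by 0.52 on the log2 scale, and 3 dimmer ones did not pass. Cdca8, or borealin, of the chromosomal passenger complex, averaged 546 ± 143 in stage II-III tubules and 1112 ± 97.1 in stage I tubules (a log2 change of -1.05 ± 0.14 (SE), adjusted p = 3.6e-08), and its log2 change was -0.96 without stage II-III replicate 4 and -0.97 without replicate 5, under 2-fold.

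Under the 2-fold limit, Pttg1, or securin, which holds sister chromatids together until anaphase, fell to 1149.6 ± 90.3 in stage II-III tubules, against 2273 ± 120.5 in stage I tubules (log2 change -0.98, adjusted p = 2.4e-08). Bub1b (-0.94), Aurkc (-0.83), Aurka (-0.74), Cks2 (-0.69), Cdc25a (-0.69), Espl1 (-0.63) and Birc5 (-0.53) also fell in log2 change. The single riser was Bub1, a checkpoint kinase, with 862, 759, 628, 826 and 981 at stage II-III and 430.2, 288, 443, 447 and 437 at stage I (a log2 change of 0.98 ± 0.12 (SE), adjusted p = 1.5e-08). Its groups did not overlap. Ttk and Bub1b, which fell, act in the same checkpoint. The mitotic cyclin genes did not pass: Ccnb1 averaged 1053 ± 129 in stage II-III tubules and 1137 ± 170.5 in stage I tubules, and Ccnb2 867 ± 151 in stage II-III tubules and 846 ± 199.9 in stage I tubules. Plk1 (-0.34) and Aurkb (-0.14) did not pass either. Of 29 spindle, centrosome and cytokinesis genes, 11 fell and 2 rose (beside 9.86% and 9.68% of all genes), none of them 2-fold. The falls were led by Kif20b (-0.87), Prc1 (-0.79), Nusap1 (-0.78) and Ect2 (-0.62), which serve the central spindle and cytokinesis, and Kif15 (0.60) and Cenpf (0.35) rose, again in log2 change.

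The promoters of the 4 division genes that fell at least 2-fold are shown because all 4 hold both letter strings known from cell cycle promoters, the CCAAT box (CCAAT) and the cell cycle homology region or CHR (TTTGAA). Each sequence runs from 250 bases before to 50 bases after the RefSeq start of the gene in GRCr8, 5′ to 3′ on the gene's strand, and capitals mark both strings on either strand (ATTGG and TTCAAA are the reverse forms), which overlap once, in Cdca8. Cdc20 lies at chr5:137255750-137256049 (minus strand), Cdca8 at chr5:142483150-142483449 (minus strand), Cdk1 at chr20:19265043-19265342 (plus strand) and Ttk at chr8:93634389-93634688 (plus strand).
Cdc20: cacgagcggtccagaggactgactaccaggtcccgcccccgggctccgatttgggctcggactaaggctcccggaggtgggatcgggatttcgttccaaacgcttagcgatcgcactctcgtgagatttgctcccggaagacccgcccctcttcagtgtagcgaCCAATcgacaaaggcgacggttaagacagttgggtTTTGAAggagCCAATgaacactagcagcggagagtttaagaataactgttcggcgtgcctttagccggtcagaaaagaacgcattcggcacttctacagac
Cdca8: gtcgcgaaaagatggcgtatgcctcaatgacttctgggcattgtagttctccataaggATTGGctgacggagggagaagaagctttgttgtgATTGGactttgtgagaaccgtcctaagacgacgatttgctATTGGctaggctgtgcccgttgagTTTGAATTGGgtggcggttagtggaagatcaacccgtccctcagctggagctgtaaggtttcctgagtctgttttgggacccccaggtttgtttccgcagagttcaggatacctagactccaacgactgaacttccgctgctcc
Cdk1: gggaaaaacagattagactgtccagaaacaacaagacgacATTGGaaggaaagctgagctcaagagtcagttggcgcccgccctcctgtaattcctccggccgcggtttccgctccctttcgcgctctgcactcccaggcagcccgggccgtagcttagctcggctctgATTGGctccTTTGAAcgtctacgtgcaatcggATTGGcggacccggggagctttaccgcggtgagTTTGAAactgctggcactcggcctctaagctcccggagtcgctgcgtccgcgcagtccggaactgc
Ttk: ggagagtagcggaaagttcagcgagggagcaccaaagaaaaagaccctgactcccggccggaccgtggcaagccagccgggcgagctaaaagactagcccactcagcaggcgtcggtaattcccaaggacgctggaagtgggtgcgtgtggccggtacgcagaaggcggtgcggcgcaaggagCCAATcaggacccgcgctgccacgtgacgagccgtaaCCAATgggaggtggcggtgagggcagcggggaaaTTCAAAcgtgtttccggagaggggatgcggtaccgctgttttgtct
Both strings stood in the promoters of 13 of 23 tested G2 and M phase genes with a promoter (56.5%), whether or not they fell, and of 496 of 9958 tested genes (4.98%). Among all genes at least 2-fold lower the share was 8.23% of 158, and among all at least 2-fold higher 6.76% of 281. A match is a description of the letters, not a site in use.

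Of 26 DNA replication genes tested, 3 rose and 4 fell (beside 9.68% and 9.86% of all genes), among these Gmnn (-0.78) and Top2a (-0.51) in log2 change. Pola2, the accessory subunit of DNA polymerase alpha, gave 46.8, 87.2, 112, 26.9 and 18.2 at stage II-III and 174, 238, 253, 269 and 237 at stage I (a log2 change of -2.16 ± 0.33 (SE), adjusted p = 1.1e-06). Rpa1, which coats single-stranded DNA in replication and recombination, averaged 569 ± 229 in stage II-III tubules and 1414 ± 114 in stage I tubules (a log2 change of -1.41 ± 0.16 (SE), adjusted p = 7.4e-10). For both, stage II-III replicates 4 and 5 were the lowest of all samples. Mcm6, a subunit of the replicative helicase, rose, with 123 ± 32.2 in stage II-III tubules and 47.8 ± 9.43 in stage I tubules (a log2 change of 1.26 ± 0.16 (SE), adjusted p = 1.2e-08), and Pcna (0.42) and Mcm7 (0.28) rose by less (log2 changes). Outside the list but among the 12 largest falls, Polh, the polymerase that copies past ultraviolet damage, had low signals of 5.19, 2.99, 17.2, 5.06 and 22.8 at stage II-III and 75.5, 54.5, 68.2, 40.0 and 59.1 at stage I (log2 change -2.18, adjusted p = 3.2e-07). Traf2, an adaptor of tumour necrosis factor receptors, averaged 48.1 ± 31.6 in stage II-III tubules and 199 ± 31.1 in stage I tubules (log2 change -2.21, adjusted p = 2.6e-08). Both were highest in isolated pachytene spermatocytes, where Polh had a mean of 135 and Traf2 one of 563, beside 9.11 for Polh and 86.7 for Traf2 in round spermatids.

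Of 18 transcription regulators of spermatocytes and spermatids, 3 rose and 2 fell (beside 9.68% and 9.86% of all genes). Mybl1, or A-MYB, which in the mouse drives the gene program of pachytene spermatocytes, gave 105, 176, 127, 104 and 108 at stage II-III and 407, 246, 344, 285 and 275 at stage I (a log2 change of -1.30 ± 0.13 (SE), adjusted p = 3.1e-11). Crem, the activator of many spermatid genes, rose to 917 ± 174 in stage II-III tubules, against 509 ± 42.0 in stage I tubules (a log2 change of 0.83 ± 0.11 (SE), adjusted p = 1.3e-07), with no overlap. Sox6 averaged 208 ± 32.4 in stage II-III tubules and 92.5 ± 32.0 in stage I tubules (log2 change 1.18, adjusted p = 1.2e-08), with a dim second probe set that did not pass, and Hsf2 rose by 0.82 and Tcfl5 fell by 0.26 on the log2 scale. Tbpl1 (-0.12) and Rfx2 (-0.12), both needed for spermatid development in the mouse, did not pass.

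CREM binds the cyclic AMP response element, TGACGTCA, which is its own reverse form. The promoters of Tnp1, which fell, and Lyzl6, which rose, are printed because both hold these 8 letters, in capitals. Tnp1 lies at chr9:82044229-82044528 (minus strand) and Lyzl6 at chr10:89049161-89049460 (minus strand) in RefSeq's GRCr8.
Tnp1: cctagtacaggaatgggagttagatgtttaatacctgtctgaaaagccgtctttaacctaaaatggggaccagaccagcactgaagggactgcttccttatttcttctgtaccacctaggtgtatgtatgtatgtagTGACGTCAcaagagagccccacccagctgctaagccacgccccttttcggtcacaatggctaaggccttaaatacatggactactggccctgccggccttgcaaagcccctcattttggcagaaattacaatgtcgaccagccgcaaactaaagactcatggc
Lyzl6: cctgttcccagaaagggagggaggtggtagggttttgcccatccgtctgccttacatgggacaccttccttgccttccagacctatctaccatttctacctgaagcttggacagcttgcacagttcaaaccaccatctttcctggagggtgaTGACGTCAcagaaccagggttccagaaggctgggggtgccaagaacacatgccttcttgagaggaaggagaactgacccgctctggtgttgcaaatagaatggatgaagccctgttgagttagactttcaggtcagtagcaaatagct
The full element stood in 13 of 281 promoters of genes at least 2-fold higher (4.63%), in 6 of 158 of genes at least 2-fold lower (3.80%) and in 315 of all 9958 (3.16%). The shorter form TGACG, which also matches inside the full element, stood in 28.8%, 32.9% and 30.6% in the same order. The X box letters GTTGCCA, on either strand, stood in 4.63%, 3.80% and 3.99%.

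The remaining large rises belong to diverse families. Slc17a2, a phosphate transporter, gave 184, 112, 141, 199 and 267 at stage II-III and 17.3, 5.08, 12.2, 75.8 and 60.0 at stage I (log2 change 2.62, adjusted p = 6.2e-11). Its mean was also higher at XIII-XIV (95.4) than at stage I, which was its lowest stage. Srgn, or serglycin, a proteoglycan of secretory granules, gave 215, 272, 277, 358 and 512 at stage II-III and 37.1, 14.5, 51.3, 91.5 and 108 at stage I (log2 change 2.53, adjusted p = 3.1e-11). Sri, or sorcin, a calcium-binding protein, averaged 851 ± 273 in stage II-III tubules and 164 ± 62.3 in stage I tubules (log2 change 2.37, adjusted p = 1.3e-15), though a dim second probe set did not pass (log2 change -0.044). Prr27, a proline-rich protein, averaged 375 ± 62.5 in stage II-III tubules and 65.3 ± 32.0 in stage I tubules (log2 change 2.55, adjusted p = 7.8e-11), Spata31 averaged 171 ± 42.5 in stage II-III tubules and 25.5 ± 10.1 in stage I tubules (log2 change 2.56, adjusted p = 4.6e-10), and Zfp385b, a zinc finger gene, averaged 129 ± 48.5 in stage II-III tubules and 19.1 ± 16.0 in stage I tubules (log2 change 2.61, adjusted p = 8.5e-11). Spata31 belongs to a family of close copies, and which of them its probe set reads was not tested. Slc25a25, the mitochondrial carrier of ATP-magnesium and phosphate, averaged 116 ± 22.1 in stage II-III tubules and 19.2 ± 12.04 in stage I tubules (log2 change 2.43, adjusted p = 1e-07). Sncaip, or synphilin-1, averaged 64.2 ± 20.9 in stage II-III tubules and 7.35 ± 3.89 in stage I tubules (log2 change 2.48, adjusted p = 2.5e-08). These 8 genes were chosen among those without overlapping groups, so their lack of overlap is not a result. Among the brightest rising probe sets were Cfap90 and Saxo4, both of axonemal microtubules, with 1838 ± 371 in stage II-III tubules and 703 ± 143 in stage I tubules for Cfap90 (log2 change 1.38) and 1606 ± 266 in stage II-III tubules and 754 ± 70.8 in stage I tubules for Saxo4 (1.08). Prss46, a serine protease gene, averaged 1702 ± 368 in stage II-III tubules and 806 ± 147 in stage I tubules (log2 change 1.07).

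The counts in the lists described next stand beside 9.68% of all genes that rose and 9.86% that fell. Of 25 Sertoli cell genes, 4 rose and 2 fell, 1 of them 2-fold. That gene was Prnd, which encodes the prion-like protein doppel, with 9.46, 30.8, 47.1, 82.1 and 82.4 at stage II-III and 5.78, 4.03, 2.77, 21.8 and 29.3 at stage I (log2 change 1.63, adjusted p = 0.00076). Its groups overlapped, its adjusted p was 0.0671 in a fit of the 10 samples alone, and it was far brighter in isolated Sertoli cells (2567) and at the next stage, IV-V (535). Ctsl, a cathepsin secreted by Sertoli cells, rose (log2 change 0.85, adjusted p = 1.9e-06), while Shbg, or androgen-binding protein, fell (log2 change -0.53, adjusted p = 0.00059), and Clu did not pass (0.16). Beside these, the summed Sertoli cell markers ranged from 4178 to 4607 in stage II-III samples and from 4074 to 4329 in stage I samples, and their part was not tested.

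Of 13 recombination and synaptonemal complex genes, 3 rose, Syce3 (0.87), Smc1b (0.73) and Psmc3ip (0.38), and Mlh3 fell at very low signal. Of 15 genes of pachytene spermatocytes, a list that shares Mybl1 and Aurkc with those above, Tdrd1 (-0.47) fell as well and Piwil2 (0.65) rose. Of 19 spermatogonial genes none rose and only Id4 (-0.46) fell. Of 14 cholesterol genes, Cyp51, the lanosterol demethylase, rose to 190.3 ± 64.9 in stage II-III tubules, against 42.2 ± 20.0 in stage I tubules (log2 change 2.08, adjusted p = 1.6e-11), with a smaller rise of its second probe set (log2 change 0.56). Sqle (0.98) and Idi1 (0.58) also rose, while Mvd (-1.16, adjusted p = 0.00977) and Insig1 (-0.78) fell. Without stage II-III replicate 4 the adjusted p of Mvd was 0.102. Of 18 immediate early and heat shock genes, Klf4 rose, with 685, 936, 754, 852 and 1107 at stage II-III and 251, 218, 320.3, 383 and 396 at stage I (a log2 change of 1.47 ± 0.15 (SE), adjusted p = 1.8e-10), as did Nr4a1, with 129.6 ± 24.2 in stage II-III tubules and 62.9 ± 14.9 in stage I tubules (adjusted p = 0.00261), and the other 16 did not pass. Of 10 macrophage and blood genes only Aif1 passed, with 542 ± 164 in stage II-III tubules and 273 ± 158 in stage I tubules and overlapping groups (log2 change 1.11, adjusted p = 2.9e-05). In isolated cells this probe set was brightest in round spermatids (1843), and a second probe set did not pass.

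The following lists are again to be read against 9.68% of all genes that rose and 9.86% that fell. Of 27 ubiquitin genes, 5 rose, among them Ube2a (0.95) and Klhl10 (0.65), and 3 fell, led by Hectd3 (-0.80). Of 21 genes of stored messages 4 rose, among them Paip2b (0.62) and Tdrd7 (0.41), and Dazap1 (-0.65) and Larp1 (-0.36) fell. Of 24 junction genes, Cgn (0.74), Cadm1 (0.61) and Ctnna1 (0.36) rose and F11r (-0.40) fell. Of 21 proteases and inhibitors 2 rose, Ctsl and Serpina5 (0.48), which are also in the Sertoli cell list, and 2 fell, Adam17 (-0.51) and Ctsh (-0.37). Of 5 sperm channel genes Slc26a8 (-0.46) and Catsperz (-0.23) fell, and of 4 autosomal retrogenes Cstf2t (-0.44) fell. None of the 11 myoid genes passed, and of 10 Leydig cell genes only Star (-0.89) fell, and of 10 endothelial genes only Flt1 (0.67) rose. Of 24 X-linked housekeeping genes, Lamp2 (0.93) and Utp14a (0.64) rose and Hprt1 (-0.53) fell, with a list median of 0.16. Of 19 retinoid genes, Rdh11 (-0.52) and Aldh1a2 (-0.32) fell and none rose. The values in this paragraph are log2 changes.

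**Figure D3:**
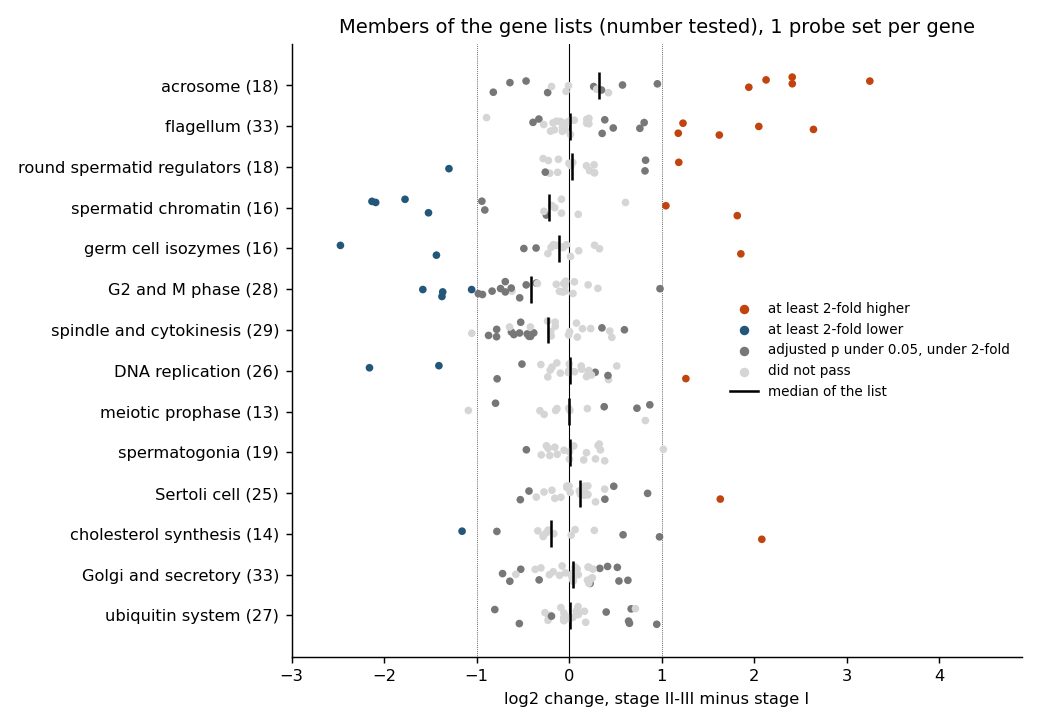
Log2 change from stage I to stage II-III (horizontal) for each tested member of 14 gene lists (vertical, number tested in brackets), 1 probe set per gene, with the list's median as a bar. The 5 acrosome genes past 2-fold lie between 1.94 and 3.25, and most G2 and M phase members lie left of 0, with a median of -0.41.

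The isolated cells, whose arrays took no part in the comparison, showed in which of these cell groups the changed transcripts were brightest. None of the groups was a preparation of elongating or elongated spermatids, so transcripts of those cells could be counted only under other groups. Tnp2 and Prm2, for example, counted under round spermatids. The part of such transcripts in the shares was not tested. Of the 518 probe sets at least 2-fold higher, 299 (57.7%) were at least 2-fold brighter in isolated round spermatids than in each of the other 3 cell groups, and none had pachytene spermatocytes in that place. Over all tested probe sets these shares were 5.25% and 2.32%. By the same 2-fold margin, 126 (43.2%) of the 292 at least 2-fold lower were brightest in pachytene spermatocytes. Another 46 (15.8%) were brightest in round spermatids and 16 (5.48%) in Sertoli cells. The Sertoli cell share was near that of all tested probe sets, 5.5%. For 38.0% of the higher and 34.9% of the lower ones no cell group stood 2-fold above the others (83.0% of all). Fam209 had a mean of 2038 in round spermatids and 214 in pachytene spermatocytes. In the same order Rpa1 had 742 and 1255, under the 2-fold margin. The cell groups were 85% to 95% pure per the labels. The Sertoli cell arrays also held Leydig cell markers, with means from 149 (Lhcgr) to 1793 (Insl3), and myoid cell markers, from 199 (Cnn1) to 1130 (Myh11). Their Sertoli cell markers ran from 43.0 (Rhox5) to 5113 (Clu). Which cells gave the signal of a probe set brightest in this group was not tested. The round spermatid arrays had a GAPDH 3′ to 5′ ratio of 2.13 ± 0.31, against 1.22 ± 0.19 for pachytene spermatocytes. The part of this difference in RNA quality in the shares was not tested.

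**Figure D4:**
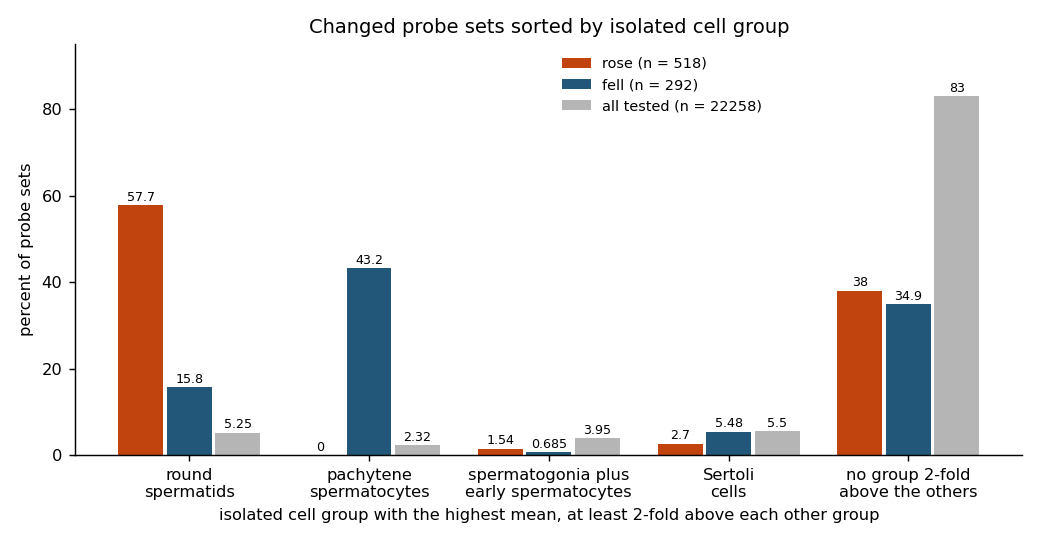
Percent of probe sets (vertical) that were at least 2-fold brighter in 1 isolated cell group than in each of the others (horizontal), for those that rose at least 2-fold, those that fell at least 2-fold and all tested. Round spermatids hold 57.7% of the higher ones, and pachytene spermatocytes hold 43.2% of the lower ones and 0 of the higher ones.

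The peak stages of the probe sets that rose at this step were concentrated at IV-V and VI. The 518 higher probe sets most often peaked at stage VI (170, 32.8%), IV-V (168, 32.4%) or II-III itself (70, 13.5%). Of all tested probe sets 9.58%, 9.05% and 9.46% peaked there. The higher ones were most often lowest at XIII-XIV (214, 41.3%), XII (135, 26.1%) or I (96, 18.5%), beside 13.5%, 7.47% and 11.4% of all tested. Choosing probe sets by this step favours a low mean at I and a high one at II-III. Their median log2 change was 0.44 from XIII-XIV to I, 1.32 from I to II-III and 0.48 from II-III to IV-V. These steps share samples, and the middle one chose the probe sets, so the values are a description. Fam209 had means of 10.6 at XIII-XIV, 108 at I, 938 at II-III, 2382 at IV-V and 3044 at VI. Tekt5, Aif1 and Sox6 were, like Slc17a2, lowest at stage I and had higher means at XIII-XIV, 24.2 for Tekt5, 791 for Aif1 and 102 for Sox6.

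For description, the 292 lower probe sets were divided by the stage of their highest mean, with a cut between IX-XI and XII. All but 2, which peaked at IV-V or VI, lay in 1 of the 2 sets so made. The larger set was the 185 with their peak at XII, XIII-XIV or I. By the 2-fold margin, 104 of these (56.2%) were brightest in isolated pachytene spermatocytes and 2 (1.08%) in round spermatids. Cdk1, Ttk, Cdca8, Rpa1 and Mybl1 belong to this larger set, and Cdc20, which peaked at VIII, does not. The other 105 peaked between VIIa.b and IX-XI. By the same margin, 22 of these (21.0%) were brightest in pachytene spermatocytes and 44 (41.9%) in round spermatids. Elongating spermatids were not among the isolated groups. Tnp1, Tnp2, Prm2, Oxct2b and Cap2 are among the 105, and all of them but Tnp1 are among the 44. For Tnp1 no group stood 2-fold above the others. By single stage, the 292 most often peaked at XIII-XIV (36.0%), IX-XI (23.3%) or XII (16.8%), beside 9.07%, 14.3% and 7.47% of all tested probe sets. Stage II-III was the lowest stage for 99 of the 292 (33.9%), IV-V for 75 (25.7%) and VI for 82 (28.1%). Of all tested probe sets 9.66%, 11.8% and 10.6% were lowest there. Choosing probe sets by their fall at this step favours a low mean at II-III. Tnp1 was lowest at II-III (1810) and had means of 2677 at IV-V, 5744 at VI and 15021 at IX-XI, while Prm2 went on falling in signal to 359 at VI. Tnp2 and Oxct2b had their lowest means at IV-V, 832 and 39.4.

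**Figure D5:**
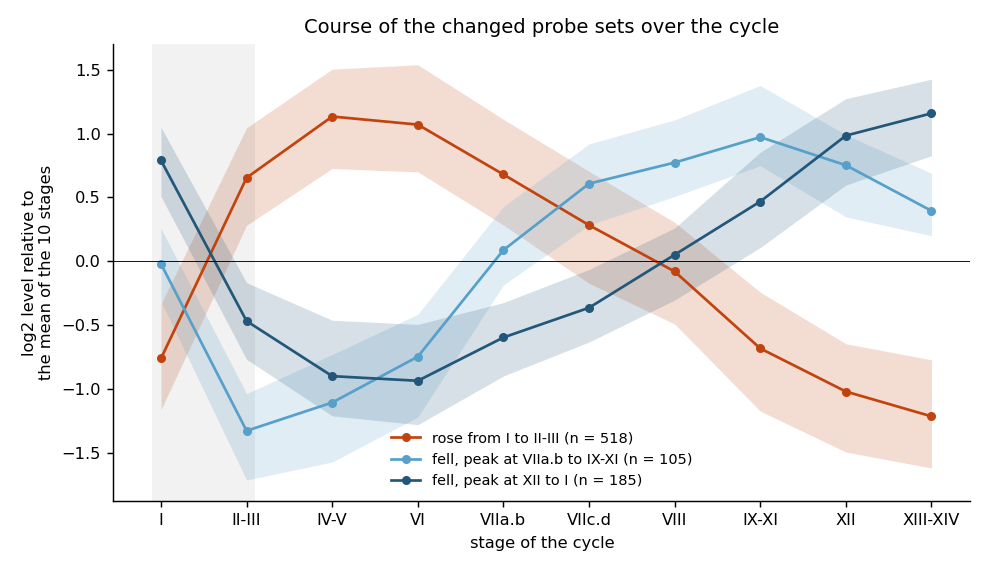
Median log2 level (lines) and interquartile range (bands) relative to each probe set's mean over the 10 stages (vertical), in stage order (horizontal), for the 518 probe sets at least 2-fold higher at II-III, the 105 lower ones that peaked at VIIa.b to IX-XI and the 185 lower ones that peaked at XII to I. The shaded step from I to II-III chose the sets, and the medians of the higher set run from -0.76 at I to 0.65 at II-III and 1.13 at IV-V.

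The replicates of a stage differed in the median level of the changed probe sets. The median log2 level of the higher probe sets, relative to the mean of the 10 samples, was between 0.49 (replicate 3) and 0.96 (replicate 5) at stage II-III and between -1.02 (replicate 2) and -0.44 (replicate 4) at stage I. For the lower probe sets it was between -0.91 (replicate 4) and -0.35 (replicate 2) at stage II-III and between 0.57 (replicate 2) and 0.72 (replicate 1) at stage I. The 2 stage II-III samples with the highest median of the higher set, replicates 4 and 5, also had the lowest of the lower set. At stage I the samples spread more in the higher set than in the lower set.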

How the data were processed

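Per the labels' protocols, total RNA was labelled from 6 µg and hybridised to Affymetrix rat arrays. Per the submitters' processing notes the tool was MAS5. The deposited values are intensity, 1 signal per probe set and sample, and the 2% trimmed mean of every array came to 100 when computed from them. No detection calls or scan dates were used, so a low signal is not shown to lie above background. Signals were analysed as log2(signal + 5.11), the 10th percentile of the table, with limma 3.58.1 in R 4.3.3 (lmFit, eBayes with trend), on all 49 tubule samples with 10 group means. Probe sets over 43.7, the table's median, in at least 3 tubule samples were tested, and p-values were adjusted over all of them (Benjamini-Hochberg). Folds are on this scale and understate changes of dim probe sets. Calls needed an adjusted p under 0.05 and 2-fold. The fit was tested on simulated data.

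A gene was represented by its probe set with the highest mean log2 level. Named genes were the 12 largest rises and 12 largest falls without overlap, the called members of 27 gene lists with defining members that did not pass, and the 5 brightest called genes in each direction. List members that passed under 2-fold, where named, were chosen after their values were seen. The comparison and lists were chosen with earlier results of these data known. Of the 31042 probe sets that are not controls, 20826 had exactly 1 gene symbol, 436 several and 9780 none. Promoters are RefSeq's, of GRCr8, for 9958 of 12003 tested genes. Per the labels' protocols, the 5 samples of a group were independent and each rat gave tubules of several stages, so samples of different stages may share rats, and which ones do is not given in the sources used here. The main fit did not treat the replicate numbers as pairs. Same-numbered samples correlated over 0.1 in their deviations for 2 of the 5 numbers, which does not settle whether they share rats. The number of arrays limits the precision. Alternatives were other pseudocounts, filters, normalization, variance models, a replicate block and leaving out each sample.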

Additional observations from a re-analysis of the deposited data

Results flagged for a closer look

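Of 134 groups of 5 samples checked (the named genes and array measures), 9 held a sample far from the other 4 of its group, by a rule that chance alone meets in about 1 of 20 groups. At stage II-III, Slc25a25 was 78.6 in replicate 1 (the others 117 to 137), Zc2hc1b was 16.6 in replicate 3 (the others 6.56 to 8.33), and the GAPDH 3′ to 5′ ratio was 0.959 in replicate 1 (the others 1.18 to 1.25). At stage I, replicate 1 gave 173.5 for Pola2 (the others 237 to 268.5), 1387 for H2ap (the others 874 to 978) and 639 for Gabarapl1 (the others 335 to 375). Stage I replicate 2, which correlated least with its group, gave 4358 for Slc2a3 (the others 3194 to 3489), a summed Leydig cell signal of 184 (the others 245 to 269) and a summed macrophage and blood signal of 285 (the others 188.5 to 216). None of these genes had overlapping groups, which for Slc25a25, Zc2hc1b and Gabarapl1 was required by the choice of genes.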

How the results depend on the processing

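The count of changed probe sets stayed within 1.5 times of 810 in all 20 alternatives, at 565 (pseudocount 14.8, the 25th percentile) to 908 (without stage II-III replicate 2), with 367 to 566 higher and 198 to 359 lower, and no probe set was called in the opposite direction. Leaving out 1 sample gave 720 to 908. With a replicate block 835 were called (537 higher, 298 lower). Same-numbered samples correlated between -0.039 and 0.177 in their deviations, with 3 of the 5 numbers correlating best with their own, a hint from the data and not the design. Leaving out both samples that stood apart, chosen after seeing the data, gave 674. Acrosome genes at least 2-fold higher numbered 5 to 6 and flagellum genes 5. By the 2-fold margin, the share of the higher probe sets brightest in round spermatids was 70.3% with the larger pseudocount. It was 64.2% with the 10 samples of both stages alone, and 78.2% by any margin. The share of the lower ones brightest in pachytene spermatocytes was 50% with the larger pseudocount and 63.4% by any margin, and in round spermatids 21.2% and 21.9%. Of 54 named genes, 45 kept their call in all 20 alternatives, none reversed, and 9 lost it in at least 1. In Prss46, Saxo4, Garin5a, Aif1, Cdca8, Cdyl2 and Sox6 the change dropped under 2-fold. Mvd lost its adjusted p without stage II-III replicate 4 (0.102) and without both samples that stood apart (0.0908), and Prnd with the 10 samples alone (0.0671). The cause was not tested.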

Other observations

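Some genes outside the lists, picked after their values were seen, extend the 2 groups described above. H2al2l, H2bl1 and Hmgb4, 2 histone variants and an HMG-box protein of spermatids, were lower at stage II-III and, like Tnp1, had their lowest stage there and their highest at IX-XI. H2al2l averaged 767 ± 157 in stage II-III tubules and 2433 ± 112 in stage I tubules (log2 change -1.68), H2bl1 averaged 705 ± 93.8 in stage II-III tubules and 1503 ± 522 in stage I tubules (-1.04), and Hmgb4 averaged 1352 ± 289.7 in stage II-III tubules and 2801 ± 300.4 in stage I tubules (-1.07). Rad50, of the double-strand break repair complex, averaged 69.6 ± 8.15 in stage II-III tubules and 148 ± 22.6 in stage I tubules (-1.03) and was brightest in isolated pachytene spermatocytes (401, against 76.2 in round spermatids).

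Among those higher at stage II-III were Camk4, a calcium-dependent kinase of spermatids, with 1446 ± 333 in stage II-III tubules and 413 ± 122 in stage I tubules (log2 change 1.82), and Hyal3, a hyaluronidase like Spam1, with 395 ± 141 in stage II-III tubules and 86.6 ± 40.7 in stage I tubules (2.17). Suv39h2, a testis-enriched methyltransferase of histone H3, averaged 71.2 ± 17.0 in stage II-III tubules and 18.5 ± 13.1 in stage I tubules (1.83). Spaca6, a sperm membrane protein needed for fertilisation in the mouse, averaged 277 ± 36.4 in stage II-III tubules and 125 ± 13.6 in stage I tubules (1.11) and, unlike Spaca3, had its highest mean at stage II-III itself. Of 89 genes at least 2-fold higher that had other tested probe sets, 35 of the 116 others were called the same way and none the opposite way. For 47 lower genes, 14 of 61 others were called the same way and 1 the opposite way.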
